A study of Mus musculus with 30 samples.

Results

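The sclera of 8-week-old mice was compared with that of 6-week-old mice over every transcript cluster that carried a single gene symbol. A transcript cluster is the set of array probes that read 1 transcribed region. These were 21789 of the 35556 transcript clusters measured, and they stood for 19938 genes. The week 8 group was the 6 arrays titled for week 8, and the week 6 group was the 6 arrays titled for week 6, out of 30 arrays at 5 ages with 6 arrays each. Every array held the RNA of 1 sclera from 1 mouse of Balb/cJ, an albino inbred strain. The methods state that the mice belonged to the same family, the labels name no treatment and no genotype beyond the strain, and neither source used here gives the sex of the animals. The comparison asks which genes still changed in the sclera over the last interval sampled, when the eye of the mouse approaches its adult size.

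The sclera is the white outer coat of the eye, a dense weave of collagen fibrils and proteoglycans laid down by fibroblasts. It meets the cornea and conjunctiva at the front, carries the extraocular muscles on its outer face, and lies against the choroid, whose melanocytes and whose neighbour, the retinal pigment epithelium, form the pigmented layers of the eye. The retinal pigment epithelium regenerates the light-sensitive form of vitamin A for the photoreceptors in a set of reactions called the visual cycle. In an albino strain these cells are present but the tyrosinase enzyme does not make pigment.

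The values are the authors' log2 signals. A difference was tested with limma in a fit over all 30 arrays with a mean for each week, and p-values were adjusted over all 35556 transcript clusters. A call required a difference of 2-fold or more, which is 1 on the log2 scale, together with an adjusted p no higher than 0.05. Log2 fold changes are week 8 minus week 6, so a negative value is lower in week 8. SEs are those of the fit, and n was 6 arrays per week throughout. Where several transcript clusters carried the symbol of a gene, the brightest over all arrays stands for the gene.

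The 14 defining genes of scleral fibroblasts and their matrix had a mean signal per array of 8.58 to 9.63 in week 8 and 8.68 to 10.07 in week 6, although Ogn at 5.53 and Aspn at 5.91 lay below the median of the array, 6.17, in week 8 replicate 6. Col1a1, which encodes a chain of the main scleral collagen, lay between 11.97 and 12.82 in week 8 and between 11.26 and 12.45 in week 6. Defining genes of neighbouring tissues were also present on every array. Krt12, the keratin of the corneal epithelium, lay between 11.56 and 13.17 in week 8 and between 12.17 and 13.47 in week 6. Atp2a1, the calcium pump of fast muscle, lay between 11.40 and 12.89 in week 8 and between 10.37 and 12.04 in week 6. Each sample was therefore a mixture of tissues, in which fewer cells of a type and less RNA per cell cannot be told apart.

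The arrays differed in ways that touch the results below. Within week 8, replicates 2 and 6 had median correlations of 0.9641 and 0.9786 with the other arrays of their week, where the other 4 lay between 0.9865 and 0.9883. The spread of signals within an array, its interquartile range, averaged 2.53 ± 0.124 in week 8 and 2.44 ± 0.123 in week 6 (SD, n = 6 each), and an exact two-sided permutation test gave p = 0.268. In week 6, the mean of replicates 4 and 6 equalled the mean of all 6 arrays in each of the 35556 transcript clusters to within 5.0e-05, and week 2 replicate 4 equalled its week mean to within 6.7e-05. Among the 155 subsets of 1 to 3 arrays checked, no other matched its week mean that closely, the nearest having a largest difference of 0.766. The methods describe a removal of batch effects by scan date, and the sources used here do not say which array was scanned when. The rank of the deviations from the week means was accordingly 23, where the fit counted 25 degrees of freedom.

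Genes of the sex chromosomes separated the ages. Xist, the RNA that silences an X chromosome in females, was at 10.05, 10.25 and 10.48 (lowest, median and highest array) in week 8, against 1.7, 4.53 and 7.52 in week 6, with a log2 fold change of 5.74 ± 1.21 (SE) and an adjusted p of 0.000466 in limma. Eif2s3y, a translation factor encoded on the Y chromosome, was at 2.41, 2.48 and 2.77 in week 8, against 5.90, 8.09 and 10.38 in week 6 (-5.56 ± 0.96, adjusted p = 4.41e-05). The week 6 values of Xist formed 3 levels, near 1.7 in replicates 3 and 5, at 4.44 and 4.62 in replicates 4 and 6, and at 7.52 and 7.20 in replicates 1 and 2, and Eif2s3y ran in the opposite order. Uty and Kdm5d, which encode histone demethylases of the Y chromosome, fell as well, with log2 fold changes of -4.44 and -2.81. Age and these signals moved together over the 12 arrays. Differences that go with age and those that go with these signals therefore cannot be told apart in the calls below. With the Xist signal of each array added to the fit, an alternative chosen after seeing the data, 141 transcript clusters were higher and 399 lower in week 8.

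**Figure D1:**
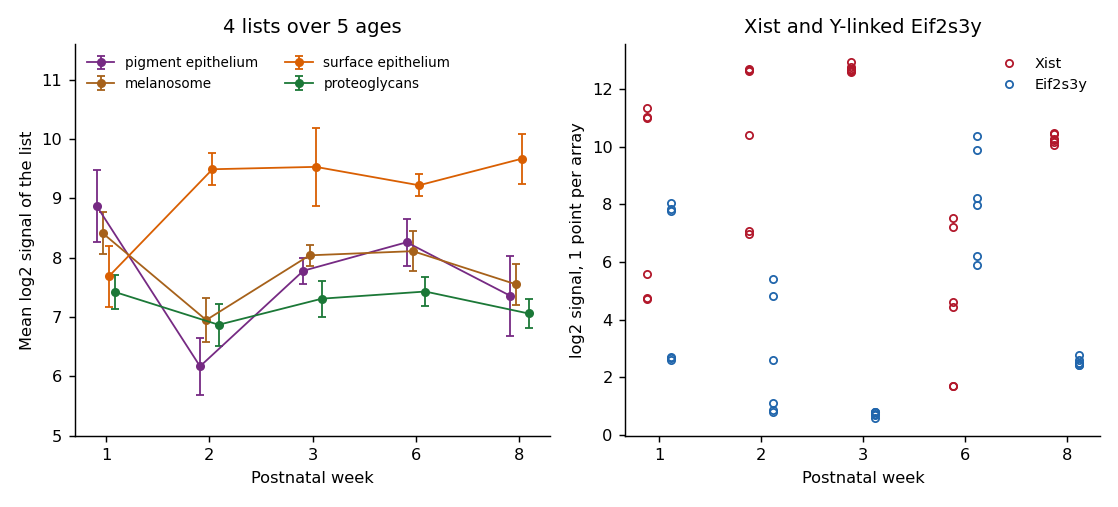
Left, mean log2 signal of 4 gene lists at postnatal weeks 1, 2, 3, 6 and 8, with points for the mean of 6 arrays, bars for the SD and ages evenly spaced on the axis; the pigment epithelium list stood at 7.36 in week 8 and 8.26 in week 6, and the surface epithelium list at 9.67 in week 8 and 9.22 in week 6. Right, log2 signals of Xist and the Y-linked Eif2s3y with 1 point per array at the same ages; all 6 week 8 arrays lie above 10 for Xist and below 3 for Eif2s3y, and the week 6 arrays are spread.

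More genes were lower in week 8 than were higher. Of the 21789 transcript clusters, 48 (0.22%) were higher and 305 (1.4%) were lower in week 8 by the threshold above. Counted once per gene, 46 of 19938 genes (0.231%) were higher and 227 (1.14%) were lower. Together these 353 calls were 1.62% of the transcript clusters. The 6 arrays of week 8 lay wholly outside the range of week 6 in 28 of the 48 higher and 254 of the 305 lower transcript clusters, where over all 21789 they lay wholly above week 6 in 4.95% and wholly below in 12%. The same arrays enter the call and this count, so these shares only describe the calls and are no support for them. Over all 35556 transcript clusters, most of the others having no gene symbol, 395 (1.11%) were higher and 948 (2.67%) lower, or 3.78% in all, with week 8 wholly above week 6 in 4.81% and wholly on either side in 16.4%. The median fold of the calls was 2.17 for those higher and 2.24 for those lower, so that most calls lay near the threshold. A fold of 4 or more was reached by Xist alone among those higher. It was reached by 22 of those lower, of which 20 were on the sex chromosomes and the other 2 were Rpe65 and Prpmp5. The Srsy family, repeated sequences of the Y chromosome that probes may not tell apart, made up 19 of the calls that were lower.

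The share of calls that were higher was 13.6%. It was 25.6% when every array was centred on its median (73 higher and 212 lower). The log2 fold change of the median gene was -0.05 in the deposited values. Without week 8 replicate 2, 74 transcript clusters were higher and 271 lower, and without both arrays that stood apart the counts were 70 higher and 188 lower. In alternatives also chosen after seeing the data, counting the terms that left the exact equalities of week 6 in the fit changed no log2 fold change and enlarged the SEs. The calls were then 45 higher and 294 lower with week 8 set against week 6 replicates 1, 2, 3 and 5, and 32 higher and 247 lower with week 8 set against replicates 4 and 6. They were 5 higher and 26 lower where week 8 was linked to week 6 only through week 2.

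The calls that were lower in week 8 were often genes at their peak in week 6. The week 6 mean was the highest of the 5 ages in 193 of the 305, or 63.3%, where it was the highest in 24.1% of all 21789 transcript clusters. Among the 48 that were higher, the week 6 mean was the lowest of the 5 ages in 17, or 35.4%, where it was the lowest in 13.9% of all. The week 6 values enter both the call and this count, so the shares are given as a description.

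**Figure D2:**
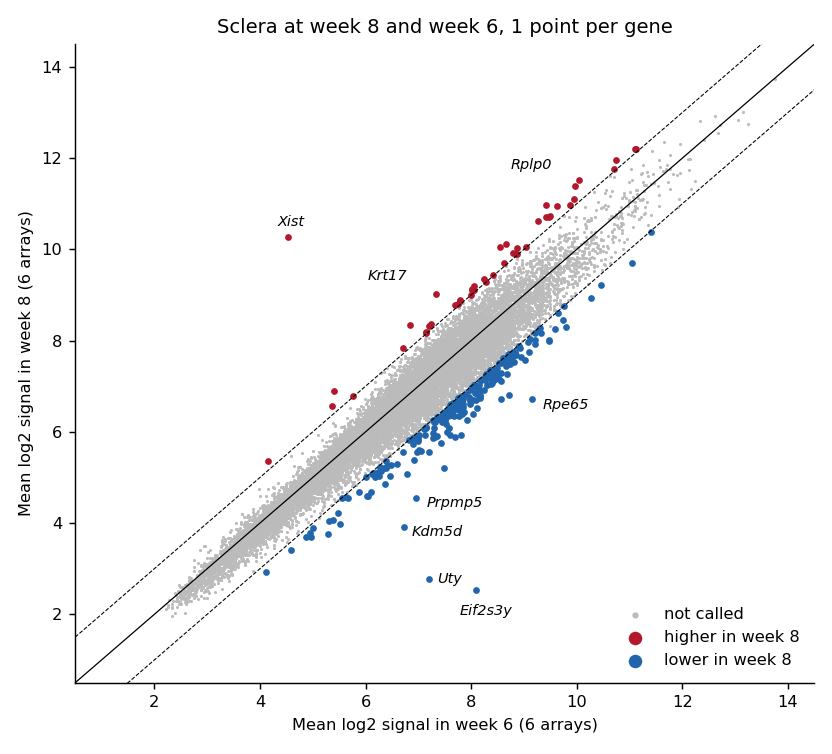
Mean log2 signal of 19938 genes in week 8 (y axis, 6 arrays) against week 6 (x axis, 6 arrays), 1 point per gene, with the diagonal solid and fold changes of 2 dashed. The 227 genes lower in week 8 lie below the diagonal and outnumber the 46 above it, and Xist and the Y-linked genes lie farthest out.

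The genes of the retinal pigment epithelium were lower in week 8. Of 18 measured genes of this cell type and its visual cycle, 9 fell, none rose and 9 were not called, against the 1.14% of all genes that were called lower. The median log2 fold change of the 18 was -1.0, where that of all genes was -0.05. Rpe65 (transcript cluster 10497135, chromosome 3), the isomerase at the centre of the visual cycle, was at 3.58, 7.19 and 7.86 (lowest, median, highest array) in week 8, against 7.73, 9.21 and 10.24 in week 6. The lowest week 6 array, replicate 2, lay just below the 3 highest week 8 arrays, and every other week 6 array was above them. Its log2 fold change was -2.44 ± 0.601 (SE), with an adjusted p of 0.00203 in limma. Lrat, which stores vitamin A as an ester and so supplies Rpe65 with its substrate, was at 4.90, 6.11 and 6.55 in week 8 and 7.07, 7.65 and 7.82 in week 6 (-1.55 ± 0.323, adjusted p = 0.000405). Rrh, the opsin peropsin of this epithelium, was at 4.72, 5.65 and 6.06 in week 8, against 6.60, 6.92 and 7.35 in week 6 (-1.41 ± 0.282, adjusted p = 0.000251). All week 8 arrays were below all week 6 arrays for Lrat and Rrh, and for the pair that follows.

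Kcnj13, a potassium channel of the pigment epithelium, was at 5.81, 8.75 and 9.09 in week 8 and 9.18, 9.70 and 10.60 in week 6 (-1.5 ± 0.408, adjusted p = 0.00467). Cltrn, or collectrin, is encoded on the X chromosome and helps amino acid transporters reach the cell surface. It was at 4.53, 6.15 and 6.77 in week 8 and 6.92, 7.68 and 8.52 in week 6 (-1.82 ± 0.359, adjusted p = 0.000225 in limma). The remaining calls had overlapping arrays. Rgr, an opsin that binds retinal, had a log2 fold change of -1.33 (adjusted p = 0.0373), Rlbp1, which carries retinal in the pigment epithelium and in Müller glia, -1.28 (0.0144), Ttr, or transthyretin, -1.26 (0.0485), and Otx2, a transcription factor of these cells, -1.08 (0.00363). The retinol dehydrogenases were not called, with log2 fold changes of -0.92 for Rdh10 and -0.66 for Rdh5, and Best1, Stra6 and Slc16a8, which also serve this epithelium, lay between -0.21 and 0.03.

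Week 8 replicate 6 was the lowest array for this list. The mean signal of the 18 genes was 6.14 in that array and between 7.12 and 7.95 in the other 5 of week 8, against 7.62 to 8.59 in week 6. Without it, 5 genes remained called in the list and the log2 fold change of Rpe65 was -1.81 with an adjusted p of 0.00672 in limma. Rgr stood at -0.80, Ttr at -0.74, Rlbp1 at -0.92 and Otx2 at -0.94, and none of these 4 was then called. Rgr and Ttr also lost their calls without any 1 of week 8 replicates 4 or 5 or week 6 replicates 1, 3, 5 or 6, and Otx2 without week 8 replicate 5 or week 6 replicate 6. The list had 6 calls without week 8 replicate 5 or week 6 replicate 6. The mean of the list was not steady at earlier ages. It was 8.87, 6.17 and 7.78 at weeks 1, 2 and 3, then 8.26 ± 0.4 at week 6 and 7.36 ± 0.671 at week 8 (SD over 6 arrays). With week 8 set against week 6 replicates 4 and 6 alone, 3 of the 18 were called, with the Xist signal in the fit 4 were, and with the link through week 2 none was, so that the number of calls depended on which arrays carried the comparison.

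Genes of melanin synthesis and of the melanosome, the organelle that makes and stores pigment, were lower as well. Of 35 measured, 7 fell and none rose, against the 1.14% of all genes that were called lower, and the median was -0.50. Tyr (transcript cluster 10565422, chromosome 7), the tyrosinase that starts melanin synthesis, was at 5.05, 5.76 and 6.74 in week 8, against 6.82, 7.57 and 8.37 in week 6, with a log2 fold change of -1.66 ± 0.401 (SE) and an adjusted p of 0.00175 in limma. All week 8 arrays lay below all week 6 arrays, and the week 6 arrays formed a higher set of replicates 1, 3 and 6 at 8.19 to 8.37 and a lower set of replicates 2, 4 and 5 at 6.82 to 6.96. Slc24a5, a cation exchanger of pigment cells, was at 6.2, 7.59 and 8.46 in week 8 and 8.10, 9.03 and 9.86 in week 6 (-1.44 ± 0.386, adjusted p = 0.00413). Tyrp1, a melanosomal enzyme next to tyrosinase in the pathway, was at 8.04, 9.85 and 10.68 in week 8 and 10.06, 11.08 and 12 in week 6 (-1.35 ± 0.435, adjusted p = 0.0159). Both overlapped between the weeks, and both had the same higher set of week 6 arrays as Tyr.

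Oca2, a channel-like protein of the melanosome membrane, fell by 1.13 on the log2 scale, Ednrb, the endothelin receptor of melanocyte precursors, by 1.10, Myo5a, the motor that carries melanosomes along actin, by 1.05, and Slc45a2, a melanosomal transporter, by 1.02. Dct, Mlana and Pmel, classical melanocyte genes, were just outside the fold threshold at -0.99, -0.99 and -0.97. Regulators of the lineage were not called, with -0.80 for Mitf, 0.15 for Sox10 and 0.09 for Kit. Without week 8 replicate 6 the list had 2 calls, and without week 6 replicate 3 it had 3. Tyrp1 (-1.02), Oca2 (-0.88), Ednrb (-0.78), Myo5a (-0.75) and Slc45a2 (-0.78) were not called without week 8 replicate 6. Leaving out week 6 replicate 3 ended the calls of Oca2, Ednrb, Myo5a and Slc45a2, and leaving out week 6 replicate 6 those of Myo5a and Slc45a2, whose call also needed replicate 1 of each week. With the Xist signal in the fit 2 were called, and none was called with week 8 set against week 6 replicates 4 and 6 alone or linked through week 2.

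**Figure D3:**
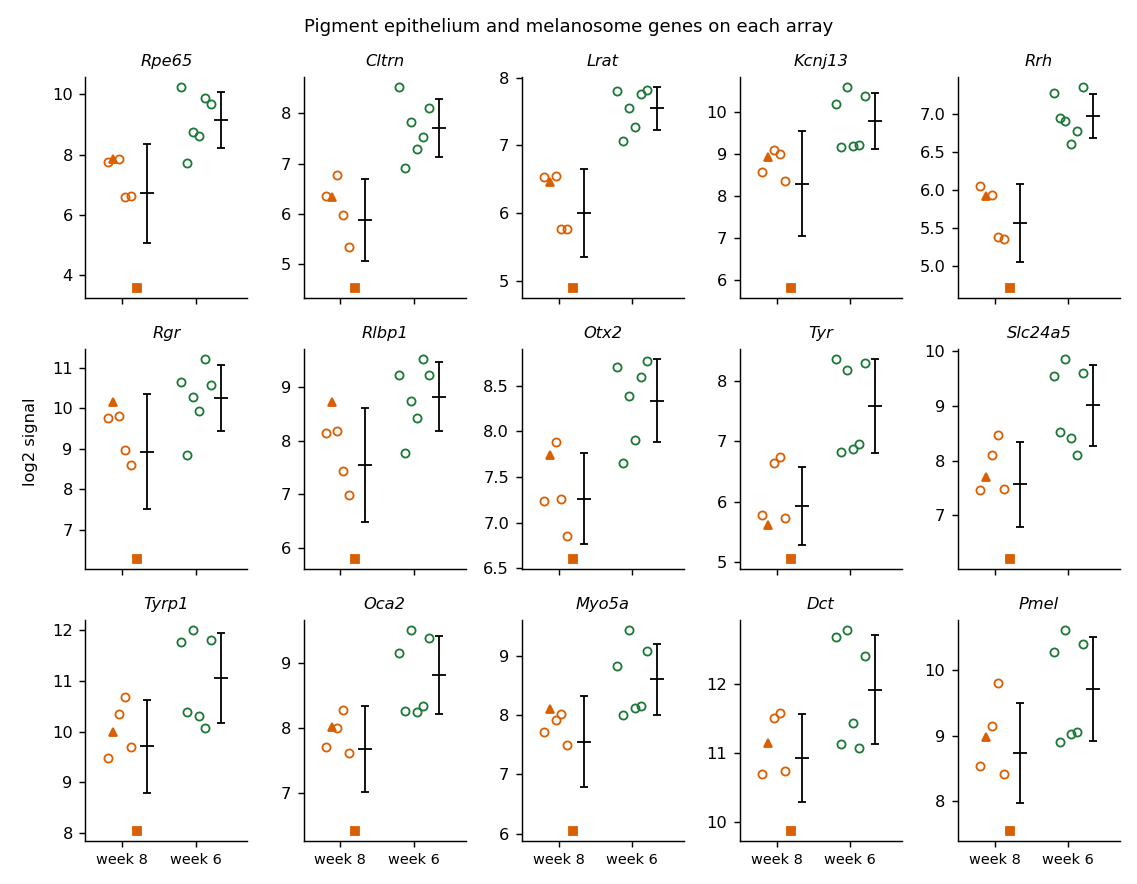
Log2 signal of 15 genes of the pigment epithelium and the melanosome, 1 point per array, with week 8 left of week 6 and the mean and SD of the 6 arrays beside each group; the filled triangle is week 8 replicate 2 and the filled square week 8 replicate 6, each panel having its own y axis. Week 8 replicate 6 is the lowest array in all 15 panels, and for Lrat, Rrh, Cltrn, Kcnj13 and Tyr all 6 week 8 arrays lie below week 6.

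The promoters of Rpe65, Tyr and Tyrp1 are shown because the factors of the MITF family, which govern pigment cells, are known to bind the letters CATGTG in pigment genes. Each is 300 bases long, ends just inside the transcript, was taken from RefSeq (GRCm38.p6) and reads 5′ to 3′ on the strand of the gene. Capitals mark CATGTG or its reverse complement CACATG. The windows are chr3:159598931-159599230 on the plus strand for Rpe65, chr7:87493463-87493762 on the minus strand for Tyr and chr4:80833963-80834262 on the plus strand for Tyrp1.
Rpe65: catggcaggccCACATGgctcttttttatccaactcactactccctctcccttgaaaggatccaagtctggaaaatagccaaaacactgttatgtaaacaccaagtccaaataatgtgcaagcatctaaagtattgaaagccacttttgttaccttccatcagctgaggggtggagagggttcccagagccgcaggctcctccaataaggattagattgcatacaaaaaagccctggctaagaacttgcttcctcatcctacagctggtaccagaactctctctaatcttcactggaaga
Tyr: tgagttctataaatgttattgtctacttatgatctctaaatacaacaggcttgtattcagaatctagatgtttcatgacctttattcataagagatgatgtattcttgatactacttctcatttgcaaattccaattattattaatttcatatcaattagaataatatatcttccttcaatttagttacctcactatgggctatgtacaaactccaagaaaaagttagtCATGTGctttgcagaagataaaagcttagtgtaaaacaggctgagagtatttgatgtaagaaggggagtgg
Tyrp1: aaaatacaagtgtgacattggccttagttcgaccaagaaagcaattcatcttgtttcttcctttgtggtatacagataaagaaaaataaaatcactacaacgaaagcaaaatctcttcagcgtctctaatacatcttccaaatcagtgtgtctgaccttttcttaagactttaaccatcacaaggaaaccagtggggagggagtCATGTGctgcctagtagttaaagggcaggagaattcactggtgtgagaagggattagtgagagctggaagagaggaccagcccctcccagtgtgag
Searched on both strands, CATGTG was found in 6 of 12 promoters listed for the called genes of the pigment epithelium and in 4 of 6 of those of the melanosome. It was found in none of 6 listed for called genes of surface epithelium. Of all 32851 promoters of this length in the table, 4650 hold it, and of those of genes measured here 10.8% do. The palindrome CACGTG, a related motif, was in none of these promoters and in 7.15% of all. The counts for the called genes are of windows, in which Otx2, Cltrn and Krt13 recur. No promoter was listed for the called genes Ttr, Slc45a2, Krt4, Krt6b, Krt16, Krt17 and Krt19. The matches describe the letters of the windows and say nothing of binding.

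Several keratins and a few other genes of the surface epithelium, the cell layers that cover the cornea and conjunctiva, were higher in week 8. Of 47 measured, 10 rose and none fell, against the 0.231% of all genes that were called higher, and the median was 0.43. Krt17 (transcript cluster 10391066, chromosome 11), a keratin of basal and stressed epithelium, was at 8.12, 9.15 and 9.70 in week 8, against 6.82, 7.35 and 7.65 in week 6 (1.69 ± 0.307, adjusted p = 8.45e-05 in limma). Krt4, a keratin of the upper layers of mucosal epithelium such as conjunctiva, was at 10.28, 11.02 and 11.52 in week 8 and 8.94, 9.45 and 9.79 in week 6 (1.57 ± 0.315, adjusted p = 0.000256). Krt14, the keratin of basal cells, was at 10.87, 11.43 and 11.73 in week 8 and 9.75, 9.91 and 10.30 in week 6 (1.42 ± 0.288, adjusted p = 0.000303). No week 8 array of these 3 keratins was as low as the highest week 6 array. Jup, or plakoglobin, which ties keratin filaments to desmosomes, was at 9.81, 10.87 and 10.95 in week 8 and 9.10, 9.56 and 9.67 in week 6 (1.22 ± 0.186, adjusted p = 8.69e-06), again without overlap.

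Krt16 (1.5), Krt19 (1.17) and Krt13 (1.06), keratins of proliferating, simple and mucosal epithelium, also rose without overlap of the arrays. The week 8 arrays lay wholly above week 6 for 8 of the 47 genes, where that held for 5.13% of all genes. Krt6b (1.2), the epithelial adaptor Sfn (1.27, and 1.28 on its other transcript cluster) and the epithelial transcription factor Elf3 (1.03) rose with overlap, in each case because week 8 replicate 2 lay among the week 6 arrays. The rise was not shared by all keratins. Krt12, which marks corneal epithelium, was at 11.56, 13.08 and 13.17 in week 8 and 12.17, 13.18 and 13.47 in week 6 (-0.22, adjusted p = 0.818). Krt5, the usual partner of Krt14, had a log2 fold change of 0.49 and was not called, and the desmosomal plaque protein Dsp stood at -0.13. Jup was the only junction gene called. Others went either way, with Dsc3 at -0.3, Cldn7 at -0.28, Dsg2 at 0.06 and Pkp1 at 0.79. Krt13, Krt15, Krt19, Krt14, Krt16 and Krt17 lie close together on chromosome 11 among the type I keratin genes, with log2 fold changes of 1.06, 0.74, 1.17, 1.42, 1.5 and 1.69, and Jup follows after them, while Krt12 lies farther off on the same chromosome.

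The mean signal of the 47 genes was 8.83 in week 8 replicate 2 and between 9.72 and 9.98 in the other 5 arrays of week 8, against 8.92 to 9.44 in week 6. Without that array 12 of the 47 were called, and leaving out any other array gave 8 to 10 calls. Krt13 was not called without week 8 replicate 1, nor Krt19 without week 6 replicate 2, and Elf3 was not called without week 8 replicate 1 or 4 or week 6 replicate 2 or 5, the smallest log2 fold changes being 0.99, 0.99 and 0.91. With week 8 set against week 6 replicates 4 and 6 alone, 4 of the 47 were called, with the link through week 2 none was, and with the Xist signal in the fit 13 were.

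**Figure D4:**
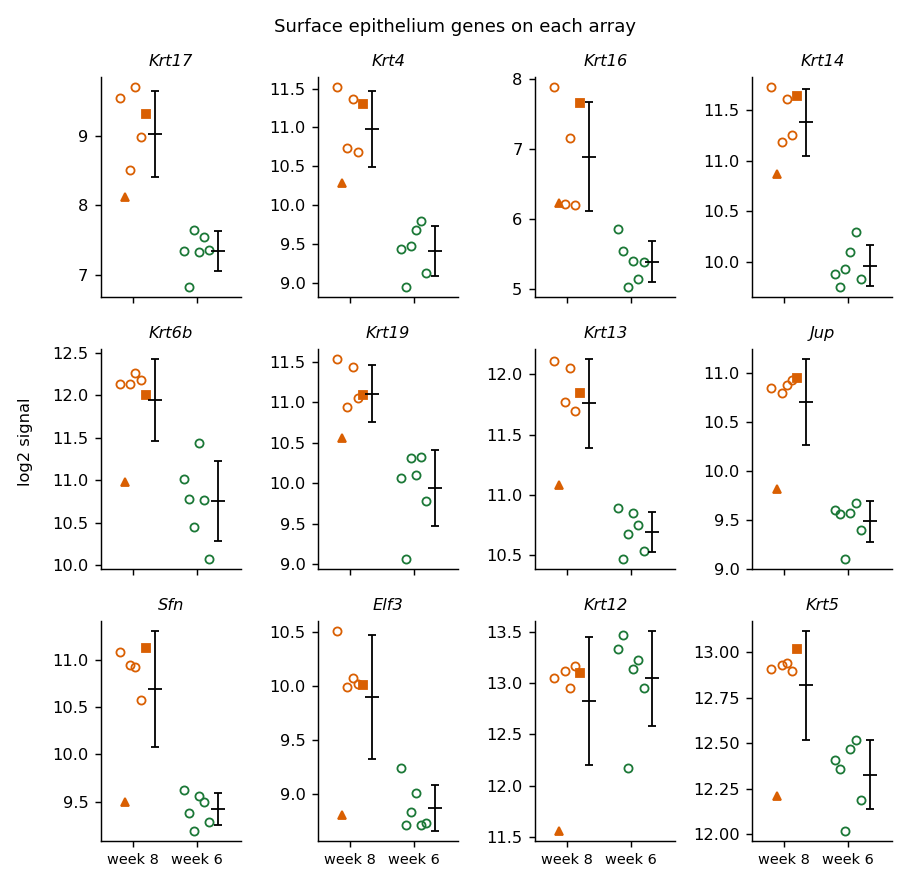
Log2 signal of 12 genes of surface epithelium, 1 point per array, with week 8 left of week 6 and the mean and SD of the 6 arrays beside each group; the filled triangle is week 8 replicate 2 and the filled square week 8 replicate 6, each panel having its own y axis. The 6 week 8 arrays lie above week 6 for Krt17, Krt4, Krt16, Krt14, Krt19, Krt13 and Jup, and the groups overlap for Krt12 and Krt5.

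Of 35 genes of the glands around the eye, only the antimicrobial proteins Lcn2 and Ltf were called, both higher, against 0.231% of all genes. Lcn2, or lipocalin 2, was at 7.84, 8.34 and 8.75 in week 8 and 6.23, 6.84 and 7.98 in week 6 (1.51 ± 0.25, adjusted p = 2.67e-05 in limma), and only week 6 replicate 5 reached the range of week 8. Ltf, or lactoferrin, of tears and other secretions, had a log2 fold change of 1.12, which was 0.90 and not called without week 8 replicate 1. Lce3a, a cornified envelope gene of skin, went the other way. It was at 4.60, 4.97 and 5.63 in week 8, against 6.19, 6.86 and 7.36 in week 6 (-1.71 ± 0.165, adjusted p = 8.54e-09), and the arrays did not overlap.

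Some small leucine-rich proteoglycans, which set the spacing of collagen fibrils in sclera and cornea, were lower in week 8, while the main collagens were not called. Of 22 proteoglycan genes, 4 fell and none rose, against the 1.14% of all genes that were called lower, and the week 8 arrays lay wholly below week 6 for 7 of them, where that held for 11.4% of all genes. Kera (transcript cluster 10365987), the keratan sulfate proteoglycan keratocan of the corneal stroma, was at 7.03, 7.24 and 7.58 in week 8, against 8.27, 8.71 and 8.89 in week 6 (-1.41 ± 0.308, adjusted p = 0.000641 in limma). Lum, or lumican, was at 6.45, 7.97 and 8.33 in week 8 and 8.39, 9.16 and 9.65 in week 6 (-1.35 ± 0.303, adjusted p = 0.000824). Ogn, or osteoglycin, was at 5.53, 7.28 and 7.54 in week 8 and 7.55, 8.50 and 8.95 in week 6 (-1.32 ± 0.34, adjusted p = 0.00292). For these 3 genes all week 8 arrays were below all week 6 arrays, although for Lum and Ogn the margin was narrow.

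Aspn, or asporin, had a log2 fold change of -1.08 with overlapping arrays, and it stood at -0.74 and was not called without week 8 replicate 6, nor was it called without week 6 replicate 3. The called genes sit in clusters of proteoglycan genes. On chromosome 10, Dcn, Lum, Kera and Epyc follow each other with log2 fold changes of -0.72, -1.35, -1.41 and -0.71, and on chromosome 13, Ecm2, Aspn, Omd and Ogn follow each other with -0.47, -1.08, -0.93 and -1.32. Fmod (0.06), Prelp (0.01) and Bgn (0.17), other small proteoglycans of the sclera outside these clusters, were not called. Without week 8 replicates 2 and 6, an alternative chosen after seeing the data, 2 of the 22 were called, and 2 were also called with week 8 set against week 6 replicates 4 and 6 alone. With the Xist signal in the fit 1 was called, and none where week 8 was linked through week 2.

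Among 23 collagens of fibrils and their surfaces, Col8a1, a short-chain collagen, was the only call, against 1.14% of all genes called lower. It was at 6.07, 7.51 and 7.99 in week 8, against 7.89, 8.30 and 8.99 in week 6 (-1.01 ± 0.27, adjusted p = 0.00428 in limma), with overlap in week 8 replicate 2, and it was -0.75 and not called without week 8 replicate 6. The call was also lost without week 8 replicate 5 or week 6 replicates 1, 3 or 6. The chains of types I and III had positive log2 fold changes below the threshold, 0.34 for Col1a1 (adjusted p = 0.155), 0.36 for Col1a2 (0.229) and 0.73 for Col3a1 (0.0267), and Col5a2 and Col6a3 stood at 0.18 and -0.04. The median of the 23 was 0.13. Ltbp4, which links elastic fibres to latent TGF-beta, rose by 1.02 without overlap of the arrays, though it was not called without week 8 replicates 2 or 4 or week 6 replicates 1 or 2, the lowest value being 0.92. Agrn, or agrin, a heparan sulfate proteoglycan of basement membranes, was at 8.76, 8.85 and 9.03 in week 8, against 7.56, 7.80 and 7.93 in week 6 (1.08 ± 0.0812, adjusted p = 1.23e-10), and it stayed called whichever array was left out. No gene was called among 24 matrix proteases and their inhibitors, 41 growth factors and receptors or 34 genes of Wnt signalling, with medians of -0.02, 0.02 and 0.04. Only 1.37% of all genes were called in either direction, so the absence of calls is no result about these lists.

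Genes around the coactivator PGC-1alpha, which drives the building of mitochondria, were probed by several transcript clusters that did not give the same call. The transcript cluster of Ppargc1a, the gene of PGC-1alpha, that was brighter over all arrays was at 6.00, 6.54 and 6.98 in week 8 and 6.74, 7.18 and 7.71 in week 6 (-0.70 ± 0.18, adjusted p = 0.00273 in limma) and was not called. The other was at 4.52, 4.93 and 5.32 in week 8, against 6.30, 6.54 and 6.74 in week 6 (-1.61 ± 0.164, adjusted p = 2.06e-08), called without overlap. Both were thus lower in week 8, by different amounts. Me1, a cytosolic malic enzyme, stood at -0.77 on its brighter transcript cluster and -1.16 on the other, and Cycs, cytochrome c, at -0.51 on the brightest and -1.13 on 1 of its others, and in each gene only the dimmest was called. By brightest transcript cluster, Hexim1 was the only call among 28 genes of this list, against the 1.14% of all genes called lower. Hexim1, an inhibitor of the elongation factor P-TEFb, was at 7.28, 7.38 and 7.52 in week 8 and 8.29, 8.44 and 8.65 in week 6 (-1.08 ± 0.0749, adjusted p = 3.42e-11 in limma), with narrow groups far apart.

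Many genes of the respiratory chain and of ribosome assembly were lower by less than the fold threshold. Of 78 respiratory chain genes, 32 were lower and 5 higher at an adjusted p of 0.05 or less with no fold threshold in limma, where over all genes 22.6% were lower and 12.4% higher by that rule. Only Cox7a2l, an assembly factor of respiratory supercomplexes (-1.19, and -0.57 on its other transcript cluster), and Ndufs6, a subunit of complex I (-1.05), also reached a fold of 2. With the fold threshold, 1.14% of all genes were called lower. Of 73 genes of ribosome assembly, 32 were lower and 7 higher by the rule without a fold threshold. Rrs1, an assembly factor of the large subunit, was at 5.51, 6.58 and 6.93 in week 8, against 7.40, 7.63 and 7.96 in week 6 (-1.2 ± 0.176, adjusted p = 5.21e-06), and Tsr1, of the small subunit, stood at -1.02. Tsr1 was not called without week 8 replicates 2 or 4 or week 6 replicates 1 or 5, its smallest fall being 0.93 on the log2 scale (-0.93). Medians were -0.21 for the respiratory chain and -0.20 for ribosome assembly. The mean signal of the ribosome assembly list was 6.81 in week 8 replicate 2 and 7.16 to 7.31 in the other week 8 arrays. In week 6 it was 7.27 to 7.58. Without week 8 replicates 2 and 6 the median of that list was -0.14, and after centring on the array medians -0.12.

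Among 61 genes of cytosolic ribosomal proteins, 1 was called higher and 1 lower, against 0.231% and 1.14% of all genes. Rplp0, of the ribosomal stalk, was at 11.08, 11.59 and 11.72 in week 8, against 9.85, 10.02 and 10.26 in week 6 (1.49 ± 0.106, adjusted p = 4.09e-11 in limma). Its other transcript cluster had a log2 fold change of 0.69 and was not called. Rps20 was at 10.04, 10.41 and 10.60 in week 8 and 11.14, 11.41 and 11.72 in week 6 (-1.03 ± 0.1, adjusted p = 9.33e-09) and was not called without week 8 replicate 2 or week 6 replicate 1. Ribosomal protein genes have many processed copies in the genome that probes may share, so these 2 values are uncertain. Mrps33, of the mitochondrial ribosome, fell by 1.24 and 1.06 on its 2 transcript clusters.

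Histone genes of the replication-dependent clusters, whose messages carry the new histones of dividing cells, included 3 that rose among 34 measured, against the 0.231% of all genes that were called higher, with a median of 0.19. With no fold threshold 14 were higher and 6 lower, against 12.4% and 22.6% of all genes. H4f16 (transcript cluster 10548857) was at 7.37, 7.90 and 8.14 in week 8, against 6.58, 6.69 and 6.87 in week 6 (1.14 ± 0.102, adjusted p = 2.14e-09 in limma). H2bc14 was at 7.87, 8.28 and 9.04 in week 8 and 6.61, 7.26 and 7.86 in week 6 (1.13 ± 0.188, adjusted p = 2.76e-05), and H4c4 had a log2 fold change of 1.10. No array of these 3 genes overlapped between the weeks, though the margin of H2bc14 was 0.01 and its call was lost without week 8 replicate 1 (0.99), as was that of H4c4 without week 8 replicate 4. Others went the opposite way, with H2bc21 at -0.98 and H2bc4 at -0.52, neither called. Histone genes of a type are nearly identical in sequence, so that a value may include reads of neighbours. Of 21 genes of histone variants, chaperones and remodelling, Smarca5 was the only call, against the 1.14% of all genes called lower. Smarca5, the motor of the ISWI remodellers, stood at -1.10, and at -0.96 without week 8 replicate 2. None of 43 cell cycle genes was called, against 1.37% of all genes called in either direction. Their median was 0.18, with 0.33 for Mki67 and 0.79 for Plk1.

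Striated muscle genes varied widely among the arrays of a week. Of 47 measured, 3 rose and 1 fell, against 0.231% and 1.14% of all genes. The 1 that fell lies near that share, and the arrays overlapped for all 4. Ckm, the creatine kinase of muscle, was at 10.26, 10.91 and 11.73 in week 8 and 8.66, 9.52 and 10.83 in week 6 (1.33 ± 0.42, adjusted p = 0.0138 in limma). Pvalb, the calcium buffer parvalbumin of fast fibres, had a log2 fold change of 1.35 (adjusted p = 0.028), Atp2a1 of 1.09, and Acta1, skeletal actin, of 0.98, which was not called. Myh13, the superfast myosin of extraocular muscle, was at 4.69, 5.20 and 6.17 in week 8, against 5.53, 6.4 and 7.28 in week 6 (-1.14 ± 0.347, adjusted p = 0.0107). Myh13 was not called without week 6 replicate 4 (-0.97), Atp2a1 not without week 8 replicate 2 or week 6 replicates 2 or 6 (lowest value 0.95), and Pvalb not without 6 of the 12 arrays in turn, namely week 8 replicates 1, 2 or 3 and week 6 replicates 2, 5 or 6 (lowest value 1.06). Only 1 muscle gene stayed higher without week 8 replicate 2 or week 6 replicates 2 or 6, and none was called with week 8 set against week 6 replicates 4 and 6 alone. The mean signal of the list was 8.76 ± 0.462 in week 8 and 8.58 ± 0.482 in week 6 (SD, n = 6 each).

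Genes that move bicarbonate and chloride across epithelia fell in 3 of 36 cases, against the 1.14% of all genes that were called lower. With the Xist signal in the fit 1 was called. Slc26a7, an anion exchanger, was at 5.68, 6.5 and 6.93 in week 8, against 7.44, 7.87 and 8.31 in week 6 (-1.44 ± 0.25, adjusted p = 4.6e-05 in limma), without overlap. Car3, a carbonic anhydrase of low activity, stood at -1.22, and Slc4a4, the sodium bicarbonate cotransporter, at -1.02. Car3 was -0.97 and not called without week 8 replicate 6, and Slc4a4 was not called without week 8 replicates 5 or 6 or week 6 replicates 1, 3, 5 or 6, its smallest value being -0.82. The median of the 36 was -0.07, and 0.02 after centring on the array medians, so that the list had no common direction.

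Of 26 listed interferon genes, Ifit1 was the only call, against the 1.14% of all genes that were called lower. Ifit1, which binds viral RNA that lacks a host cap, was at 5.27, 6.13 and 7.70 in week 8, against 7.13, 7.93 and 8.69 in week 6 (-1.67 ± 0.308, adjusted p = 9.79e-05 in limma). Ifi44l was at 5.81, 6.47 and 8.28 in week 8 and 7.19, 8.04 and 8.80 in week 6 (-1.34 ± 0.316, adjusted p = 0.0014). In both genes the overlap came from week 8 replicate 5, the highest of its week. Ifit1 belongs to a cluster on chromosome 19 in which Ifit2, Ifit3 and Ifit3b had log2 fold changes of -0.86, -0.89 and -1.22, only that of Ifit3b being called, and not without week 8 replicate 2 (-0.98). Ifi44l and Ifit3b are not members of the list of 26. Of the 26, 17 had negative and 9 positive log2 fold changes, with a median of -0.19. With no fold threshold 9 of the 26 were lower and 2 higher, against 22.6% and 12.4% of all genes. The next lowest were Ifit3, Iigp1 (-0.87), Ifit2 and Usp18 (-0.81), and the highest were Irf1 (0.47) and Tap1 (0.46). C7, a component of the complement pore, was at 4.32, 4.61 and 4.86 in week 8, against 5.18, 6.02 and 6.88 in week 6 (-1.42 ± 0.22, adjusted p = 1.15e-05), without overlap.

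**Figure D5:**
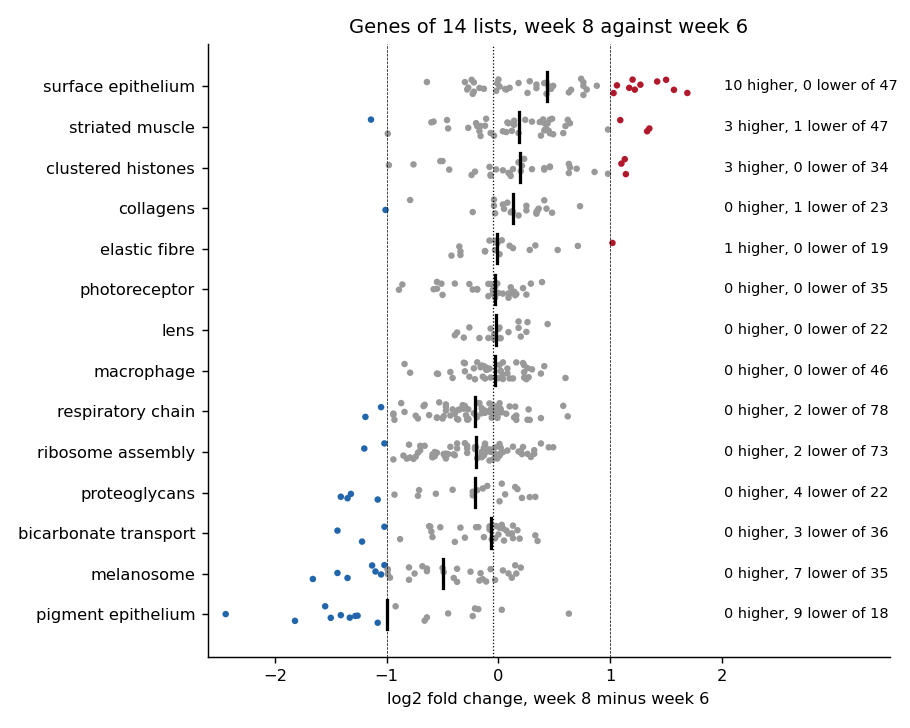
Log2 fold change, week 8 minus week 6 (x axis), of every measured gene of 14 lists, 1 point per gene, in red where called higher, in blue where called lower and in grey where not called, with the bar at the median of the list and the dotted line at the median of all genes (-0.05). The pigment epithelium genes lie lowest with a median of -1.0 and the surface epithelium highest with 0.43. The photoreceptor, lens and macrophage lists hold no call, where 1.37% of all genes were called in either direction.

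Small RNA genes were measured by probes that do not separate the mature form from its precursor. Of 300 miRNA genes, 5 fell, none rose and the median was -0.10, against 1.14% of all genes called lower. With no fold threshold 81 were lower and 8 higher, against 22.6% and 12.4% of all genes. The counts of lower genes lie near these shares, so they are no result about miRNAs as a group, and the 5 genes are described one by one. The direction of this list depended on the scaling of the arrays, since quantile normalization gave a median of 0.02 with 1 call lower and 1 higher, and centring on the array medians gave -0.02 with 3 calls lower. The mature strands usually named as the guides of these 5 genes are given from RefSeq (GRCm38.p6), 5′ to 3′, with the seed (bases 2 to 8), by which a miRNA finds its targets, in capitals. All lie on the plus strand. They are shown because no 2 of them share the same letters at bases 2 to 8. The seed letters of mmu-miR-15b-5p also open mmu-miR-103-3p, shifted by 1 base.
mmu-miR-204-5p: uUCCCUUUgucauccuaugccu
mmu-miR-15b-5p: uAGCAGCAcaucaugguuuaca
mmu-miR-19b-3p: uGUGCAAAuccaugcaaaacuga
mmu-miR-103-3p: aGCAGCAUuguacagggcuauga
mmu-let-7c-5p: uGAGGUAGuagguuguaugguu
Of the 1738 mature sequences in the table, 3 have the seed of mmu-miR-204-5p, 11 that of mmu-miR-15b-5p, 3 each those of mmu-miR-19b-3p and mmu-miR-103-3p, and 13 that of mmu-let-7c-5p.

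Mir204 (chr19:22750610-22750631 for the strand above), a miRNA abundant in the retinal pigment epithelium, was at 5.94, 6.42 and 7.13 in week 8, against 7.43, 7.90 and 7.98 in week 6 (-1.35 ± 0.196, adjusted p = 4.81e-06 in limma). It lies within Trpm3, a cation channel gene that stood at 8.51, 8.72 and 9.38 in week 8 and 8.52, 9.48 and 9.99 in week 6 (-0.65, adjusted p = 0.0112) and was not called. Mir15b (chr3:69009775-69009796) was at 3.16, 3.39 and 3.68 in week 8 and 4.44, 4.52 and 4.91 in week 6 (-1.18 ± 0.146, adjusted p = 4.47e-07), while Smc4, the condensin gene that spans it, stood at -0.23. Mir103-2 (chr2:131288103-131288125) was at 4.84, 5.08 and 5.37 in week 8 and 5.90, 6.17 and 6.39 in week 6 (-1.06 ± 0.108, adjusted p = 2.1e-08), while Pank2, the pantothenate kinase gene that spans it, stood at -0.09. Mir19b-1 (chr14:115044358-115044380) and Mirlet7c-1 (chr16:77599672-77599693) had log2 fold changes of -1.17 and -1.01. All 5 had their week 8 arrays wholly below week 6, as did 42 of the 300, near the 11.4% of all genes for which that held. Some of these signals were low. The 1027 olfactory receptor genes on the array, which most tissues do not transcribe, had a mean signal of 4.22 in week 8 and 4.33 in week 6, and at least 1 week 8 array of Mir15b, Mir19b-1 and Mirlet7c-1 lay below that level. The deposited values carry no detection call, so the folds of these 3 genes are uncertain. Week 8 replicate 6 of Rpe65, at 3.58, also lay below that level. Mirlet7c-1 was not called without week 8 replicates 5 or 6 or week 6 replicates 3, 5 or 6 (smallest value -0.79).

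Among 54 small nucleolar RNAs, which guide the modification of ribosomal RNA, 2 rose and 4 fell, against 0.231% and 1.14% of all genes. Snord37 was at 5.22, 5.31 and 5.71 in week 8, against 3.85, 4.15 and 4.54 in week 6 (1.22 ± 0.176, adjusted p = 4.1e-06 in limma). Its week 6 median lay below the mean of the olfactory receptor genes in week 6, 4.33, so this fold is uncertain. Snora21 was at 5.12, 5.21 and 5.32 in week 8 and 6.22, 6.39 and 6.52 in week 6 (-1.17 ± 0.0829, adjusted p = 4.09e-11), and -1.25 on its other transcript cluster. Snord87 (-1.32), Snora69 (-1.25) and Snora20 (-1.13) fell and Snord33 (1.03) rose, the last not without week 8 replicates 2, 4 or 6 or week 6 replicates 2 or 6 (0.93 at the lowest). The median of the 54 was -0.18.

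Several of the largest changes lay outside these groups. Usp31, a ubiquitin-specific protease, had the smallest adjusted p of the genes described here, at 6.45, 6.70 and 7.01 in week 8, against 8.44, 8.58 and 8.66 in week 6 (-1.85 ± 0.0948, adjusted p = 1.33e-13 in limma). Its other transcript cluster had a log2 fold change of 0.16, so that the parts of this gene did not behave alike. Sptssa, a small subunit of the enzyme that starts sphingolipid synthesis, was at 6.37, 6.88 and 7.08 in week 8 and 8.36, 8.77 and 8.94 in week 6 (-1.91 ± 0.121, adjusted p = 6.88e-12). Lgi1, a secreted synaptic protein, was at 5.42, 5.82 and 6.64 in week 8 and 7.23, 7.80 and 8.38 in week 6 (-1.87 ± 0.288, adjusted p = 9.68e-06). Neither overlapped between the weeks.

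Prpmp5, named for a proline-rich protein, had the largest fall outside the sex chromosomes after Rpe65, at 3.47, 4.66 and 5.73 in week 8, against 5.99, 7.10 and 7.90 in week 6 (-2.38 ± 0.43, adjusted p = 7.62e-05 in limma). Its lowest week 8 array lay below the mean of the olfactory receptor genes in week 8, 4.22, so this fold is uncertain. Tlcd4 (-1.68), Gpm6a (-1.59), a membrane glycoprotein of neurons, Nudt10 (-1.54), a hydrolase of diphosphoinositol phosphates encoded on the X chromosome, and Cd63 (-1.65), a tetraspanin of lysosomes and melanosomes, also fell without overlap. Among rises, Selenow, a small selenoprotein, was at 9.83, 10.08 and 10.49 in week 8, against 8.17, 8.55 and 9.32 in week 6 (1.47 ± 0.165, adjusted p = 1.02e-07). Ap2s1, a subunit of the clathrin adaptor AP-2, had a log2 fold change of 1.14, Rab1b, a GTPase of transport between the endoplasmic reticulum and the Golgi, of 1.12, and Ly6e, an anchored membrane protein, of 1.10. The week 8 arrays of all 4 lay above week 6.

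The growth factor, kinase and fibrillin genes that the study followed at all 5 ages were not called between these weeks. Egfr, the epidermal growth factor receptor, was at 8.88, 9.58 and 9.70 in week 8 and 9.13, 9.38 and 9.62 in week 6 (0.11, adjusted p = 0.596 in limma). Log2 fold changes were 0.08 for Igf2, an insulin-like growth factor, 0.00 for Fyn, a Src family kinase, and -0.34 for Fbn2, or fibrillin 2. With SEs of 0.255, 0.197 and 0.23 in the main fit, a change of 2-fold lay more than 2 SEs away from each. Counting the removed terms enlarged the SEs, and this distance was not computed with the larger SEs. Of 10 genes commonly used as references, Rplp0 was the only call, against the 0.231% of all genes called higher. With no fold threshold 2 were higher and 3 lower, against 12.4% and 22.6% of all genes. Of these references, the study examined Actb, at 0.30 (adjusted p = 0.00363), and Hprt, on the X chromosome, at -0.42 (0.0161). Gusb, Ywhaz and Ppia stood at 0.06, -0.06 and 0.13.

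Markers of the other tissues that a dissected sclera could hold gave few calls. None was called among 35 photoreceptor genes (median -0.03), 22 lens genes (-0.02), 27 adipocyte genes (0.06), 46 macrophage genes (-0.03), 12 genes of class II antigen presentation (0.02), 20 myelin genes (0.07) or 15 immunoglobulin genes (-0.05). Over all genes 1.37% were called in either direction, so these empty lists are no result about the tissues. Rlbp1, already counted above, was the only call among 32 genes of the inner retina, against the 1.14% of all genes called lower. Photoreceptor signal was uneven, with a list mean of 7.48 in week 8 replicate 2 and 5.74 to 6.55 in the other week 8 arrays, against 6.27 to 6.84 in week 6. Endothelial genes had 1 call of 30, against the same 1.14%, and it was Angpt1, a vessel-stabilising ligand (-1.06). Angpt1 stood at -0.71 and was not called without week 8 replicate 6, and was not called without week 6 replicates 1, 3 or 6.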

How the data were processed

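RNA of single scleras was hybridised to Affymetrix Mouse Gene 1.0 ST arrays. The deposited values are log2 signals per transcript cluster. The authors' processing notes name GCRMA and Partek 6.5, whereas the methods state RMA with removal of batch effects by scan date, and the values did not settle which was used. Nothing was normalized again. Gene symbols came from the platform annotation, 21695 of the 21789 transcript clusters with a single symbol matching the RefSeq table, while 1621 carried several symbols and 12146 none. limma 3.58.1 (R 4.3.3) was run with a mean for each week over 30 arrays, without a replicate block, and Benjamini-Hochberg adjustment, in place of the ANOVA of the methods. On simulated data, 197 of 200 genes changed by 1.5 on the log2 scale were recovered with 1 false call among 35556 transcript clusters. The simulated noise was normal and independent between arrays and genes. It held no exact equalities, no arrays that stood apart and no sex-linked differences. The planted change also lay above the threshold, near which most calls lay, so this rate of false calls does not carry over to the data. Named genes were the 15 largest changes in each direction, called members of 51 gene lists and the genes the study followed. The members and lists were chosen with earlier results of these data known. Of 30 alternatives, 7 were chosen after seeing the data. The mice were separate animals of the same family, so the p-values measure the spread within it, and the number of arrays limits the precision. Gapdh was carried only by transcript clusters with several symbols and is not given.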

Additional observations from a re-analysis of the deposited data

Results flagged for a closer look

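In 25 of the 248 groups of 6 arrays examined, for 124 genes, 1 array stood farther from the others than a gap test at the 5% level allows, and chance alone gives this in about 5% of groups. All 25 were in week 8, and in each the array was the lowest of its week, replicate 6 in 12 genes and replicate 2 in 13. No cause was tested.

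Week 8 replicate 6 was low for pigment cell genes. Its log2 signal was 3.58 for Rpe65, where the nearest other array of week 8 had 6.6. It was 5.81 for Kcnj13 (nearest 8.35), 6.42 for Oca2 (7.62), 5.96 for Ednrb (7.52) and 6.05 for Myo5a (7.49). The same array was low for genes of the fibroblast matrix, with 6.45 for Lum (7.67), 5.53 for Ogn (7.19), 5.91 for Aspn (7.77), 10.54 for Dcn (11.51) and 6.07 for Col8a1 (7.3). It also had the lowest value for the malic enzyme Me1, 7.26 (7.87), and the kinase Fyn, 6.4 (7.05).

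Week 8 replicate 2 was low for epithelial genes. Its log2 signal was 10.98 for Krt6b (nearest other array of week 8 at 12), 11.56 for Krt12 (12.95), 12.21 for Krt5 (12.9), 9.5 for Sfn (10.58), 9.81 for Jup (10.79), 8.8 for Elf3 (9.99) and 8.88 for Egfr (9.53). It was low as well for Hspb1 at 9.11 (9.91) and Dnajb4 at 6.88 (7.64), heat shock genes, and for Fosl2, of the AP-1 family, at 8.41 (9.36). The remaining 3 were Mrps33 at 5.84 (6.49), Rplp0 at 11.08 (11.52) and Ap2s1 at 8.78 (9.17).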

How the results depend on the processing

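The deposited values gave 48 transcript clusters higher and 305 lower in week 8, and no called gene among those reported reversed its direction in any alternative. Lists did change direction, the median of the miRNA list being 0.02 after quantile normalization against -0.1 as deposited, and the scleral fibroblast list having 2 calls higher and none lower with the Xist signal in the fit, against none higher and 3 lower without it. Leaving out 1 array at a time gave 37 to 74 higher and 240 to 381 lower, with 74 higher without week 8 replicate 2. Centring on the array medians, which moved the median gene by 0.086, gave 73 higher and 212 lower, and quantile normalization, which moved it by 0.104, gave 59 and 255. With no fold threshold 2620 were higher and 5117 lower, and testing against a fold of 1.2 gave 513 and 1618. The spread of each array as a covariate gave 29 higher and 501 lower. The 7 alternatives chosen after seeing the data were the Xist signal as a covariate (141 higher), the fit without week 8 replicates 2 and 6 (188 lower), the 3 fits that counted the removed terms, of which the link through week 2 gave 5 higher and 26 lower, the adjustment without the X and Y chromosomes, and identical transcript clusters counted once. The other alternatives stayed within 1.5 times the main counts. In every setting apart from the link through week 2 and the filters on probes, 17 of the calls that were higher and 123 that were lower were kept, and of the 93 called genes reported, 37.

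Replicate numbers did not pair the arrays. Same-numbered arrays of the weeks had correlated deviations above 0.1 in 1 of 6 pairs, 1 of 6 week 8 arrays correlated best with its own number, and with the replicate block 47 were higher and 304 lower. Centring on the array medians left 6 calls in the pigment epithelium list, 5 in the melanosome list and 10 in the surface epithelium list. The cause of these differences was not tested.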

Other observations

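Stress, clock and synapse genes held a few further calls. Of 27 heat shock and chaperone genes, 1 rose and 2 fell, against 0.231% and 1.14% of all genes. Hspb1, a small heat shock protein of epithelium and muscle, was at 9.11, 10.05 and 10.25 (lowest, median and highest array) in week 8, against 8.35, 8.8 and 9.21 in week 6 (log2 fold change 1.12 ± 0.208, SE, adjusted p = 0.000109 in limma). Dnajb9, a chaperone of the endoplasmic reticulum, was at 6.51, 7.3 and 7.45 in week 8 and 7.8, 8.26 and 8.75 in week 6 (-1.14 ± 0.186, adjusted p = 2.06e-05). The arrays overlapped for Hspb1 and did not for Dnajb9. Dnajb4, another co-chaperone, stood at -1.08, and at -0.93 and not called without week 8 replicate 2.

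Bhlhe41, a repressor of the circadian clock, was the only call among 22 clock genes, against the 1.14% of all genes called lower. It was at 6.27, 7.45 and 7.72 in week 8, against 7.83, 8.36 and 8.99 in week 6 (-1.14 ± 0.222, adjusted p = 0.000181 in limma), and it was -0.95 and not called without week 8 replicate 6. Sv2b, a synaptic vesicle protein, stood at -1.1, and at -0.9 and not called without week 8 replicate 6, nor without week 6 replicate 6. Fosl2, a partner of Jun, stood at 1.0 and lost its call without any 1 of 7 arrays, namely week 8 replicates 1, 3, 4, 5 or 6 and week 6 replicates 3 or 6.

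Transcript clusters of a gene often differed in their calls. Of 72 genes with several transcript clusters and at least 1 call, all were called in 9, and in 44 the brightest was not called.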
